A study of Mus musculus with 12 samples.

Results

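The 10 genes described here encode the enzymes that build long-chain fatty acids and set their length and unsaturation: the stearoyl-CoA desaturases Scd1, Scd2 and Scd3, the front-end and sphingoid-base desaturases Fads1, Fads2 and Fads3, the elongases Elovl1, Elovl5 and Elovl6, and fatty acid synthase, Fasn. They were taken by symbol from the 24411 genes listed in each library, and all 10 passed the filter on low counts, which kept 13755 genes. They were chosen by their expected counts and TPM in these 4 groups, which were known beforehand, so their levels and differences are given as a description and carry no test.

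Bone marrow cells sorted as lineage-negative and cKit-positive, a fraction of stem and progenitor cells, were profiled by poly(A) RNA-seq in C57BL/6 mice. Irradiated CD45.1 recipients had received CD45.2 donor marrow mixed with wild-type CD45.1 support marrow. All donors, controls included, carried Mx1-Cre, a recombinase under an interferon-inducible promoter. All recipients were given 3 doses of pIpC at 20 mg/kg from 4 weeks after the transplant and were sampled 6 months later. The double group carried both the inv(3) allele and heterozygous Sf3b1 K700E, a mutation of a splicing factor, the inv(3) group carried inv(3) alone, the Sf3b1 K700E group carried the mutation alone, and the control group carried Mx1-Cre alone. There were 3 libraries per group. The inv(3) allele places a GATA2 enhancer beside EVI1 (Mecom). No source used here says whether donor cells were sorted away from support cells, or whether libraries of a group came from separate mice. P-values below therefore measure the spread between these libraries.

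Fasn joins acetyl and malonyl units into palmitate. Elovl6 lengthens palmitate to stearate, and the Scd enzymes place the first double bond in both, which makes the monounsaturated acids of phospholipids and triglycerides. Fads2 and Fads1 act in turn on dietary essential fatty acids, with an elongation by Elovl5 between them, to make the polyunsaturated acids that feed eicosanoid synthesis. Elovl1 makes very long saturated and monounsaturated chains for sphingolipids, and Fads3 desaturates sphingoid bases. In mice Scd1 is the main form of liver and fat, Scd2 of brain and many other tissues, and Scd3 is best known from skin and the Harderian gland.

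The genes sit in 2 clusters on chromosome 19 and at 4 other loci (RefSeq, GRCm38.p6). Fads3 lies at chr19:10040855-10060113, Fads2 at chr19:10062765-10101503 and Fads1 at chr19:10182877-10196874. The Scd cluster runs from Scd3 at chr19:44203288-44244016 through Scd2 at chr19:44293676-44306864 and Scd4 at chr19:44333326-44346743 to Scd1 at chr19:44394450-44407709. Elovl6 lies at chr3:129532386-129638495, Elovl1 at chr4:118426874-118432953, Elovl5 at chr9:77917365-77984519 and Fasn at chr11:120805958-120825166. The 250 bases before the annotated start are printed for the gene that differs most between genotypes, Scd3, and for Fads2, Fads3 and Elovl6, which are all lowest in inv(3). The Fads3 window in the RefSeq table precedes a start at base 10041548, which lies inside the gene span given above, and its positions are counted from that start. The sequences are from RefSeq (GRCm38.p6), 5′ to 3′ on the gene's strand, with capitals marking matches to the motifs named after them.
Scd3, chr19:44203038-44203287 (+ strand): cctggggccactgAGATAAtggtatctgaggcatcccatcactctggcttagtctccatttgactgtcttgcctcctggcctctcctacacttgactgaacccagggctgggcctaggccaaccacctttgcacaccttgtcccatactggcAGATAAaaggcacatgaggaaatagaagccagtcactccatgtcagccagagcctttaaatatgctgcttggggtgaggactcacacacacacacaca
Fads2, chr19:10101504-10101753 (- strand): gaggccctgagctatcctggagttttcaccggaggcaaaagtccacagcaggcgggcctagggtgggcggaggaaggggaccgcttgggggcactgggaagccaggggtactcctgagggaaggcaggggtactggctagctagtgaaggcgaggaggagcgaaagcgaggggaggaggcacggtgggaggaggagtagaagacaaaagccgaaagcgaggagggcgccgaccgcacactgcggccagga
Fads3, chr19:10041298-10041547 (+ strand): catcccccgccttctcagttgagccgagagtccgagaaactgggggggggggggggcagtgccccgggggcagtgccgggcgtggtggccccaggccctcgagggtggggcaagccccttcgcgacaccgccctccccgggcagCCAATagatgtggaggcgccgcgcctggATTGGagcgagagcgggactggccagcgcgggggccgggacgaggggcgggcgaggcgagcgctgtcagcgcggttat
Elovl6, chr3:129532136-129532385 (+ strand): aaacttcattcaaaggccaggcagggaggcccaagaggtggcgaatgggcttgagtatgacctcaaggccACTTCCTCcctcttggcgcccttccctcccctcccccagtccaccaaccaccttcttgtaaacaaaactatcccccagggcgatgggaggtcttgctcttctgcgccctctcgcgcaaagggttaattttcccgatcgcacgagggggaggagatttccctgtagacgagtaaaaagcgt

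On both strands 6 motifs were searched: AGATAA, bound by GATA factors, GAAGATGAG, bound by the second zinc-finger domain of EVI1, TCACNCCAC, a sterol response element, CCAAT, bound by NF-Y, the core promoter element TATAAA, and GAGGAAGT, bound by PU.1. None of these spellings contains another. The Scd3 window held AGATAA in 2 places, at 237 to 232 and at 98 to 93 bases before the start. AGATAA occurred in 9.99% of 32851 promoter windows of the same length. Fads3 held CCAAT at 106 to 102 bases and its complement at 78 to 74 bases before that start inside the gene, a motif present in 33.8% of windows. Elovl6 held the complement of GAGGAAGT at 180 to 173 bases before the start, a motif in 2.44% of windows, and the Fads2 window matched no motif. GAAGATGAG (0.347% of windows), TCACNCCAC (1.05%) and TATAAA (12.4%) matched none of the 4 windows. Windows for 7 of the 10 genes were found in the table used. Among those not printed, Elovl1 also held the complement of AGATAA, at 174 to 169 bases before a listed start. CCAAT or its complement occurred before Elovl1, Elovl5 and Fasn. Those of Scd1, Scd2 and Fads1 were not analysed here.

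Library totals ran from 73074797 to 86555638 expected counts. The first principal component held 65.9% of the variance and set the 6 libraries with inv(3) apart from the other 6. The inv(3) library of replicate 2 stood apart from its group, at 73.3 on that axis against 46.8 and 52.2 for the other two, and at -50.3 on the second against -12.0 and -20.6. Xist RNA was at 162 to 195 TPM in the inv(3) libraries, against 2.24 to 3.84 TPM in the double, 7.86 to 21.8 TPM in the Sf3b1 K700E and 2.34 to 3.92 TPM in the control group, while Ddx3y, encoded on the Y chromosome, stood at 0.01 TPM or less in inv(3) and at 39.3 TPM or more in the other 9 libraries. In comparisons of inv(3) with control or with the double group, and in the interaction of the alleles, which includes the inv(3) group, the genotype and the sex of the cells cannot be told apart. Double and Sf3b1 K700E had Y-linked RNA in all 6 libraries. Between these groups Xist was still lower in double by 2.39 log2 units (adjusted p = 0.00026 by edgeR), and Kdm5d and Uty were higher by 0.24 and 0.25 (adjusted p = 0.015 and 0.012). Kit, part of the sorting gate, was at 134 to 161 TPM in all 12 libraries, but other progenitor markers moved. Among 6 of them, Kit included, Mpo was higher and Cd34 and Gata2 were lower in inv(3) than in control. Mpo was also higher, and Cd34 and Runx1 were lower, in double than in Sf3b1 K700E. Cd34 was at 129 to 197 TPM in double, 58.2 to 106 TPM in inv(3), 277 to 305 TPM in Sf3b1 K700E and 206 to 233 TPM in control.

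Markers of other cells also moved with genotype. The summed level of 13 macrophage markers was 49.6 to 66.8 TPM in double, 49.9 to 90.9 TPM in inv(3), 360 to 599 TPM in Sf3b1 K700E and 227 to 255 TPM in control libraries. Of 12 mast cell, basophil and eosinophil markers, 12 were lower in inv(3) than in control and 10 were lower in double than in Sf3b1 K700E. Of 10 erythroid markers, 10 were lower in double than in Sf3b1 K700E. In inv(3) over control 6 were lower and 1, Hbb-b1, was higher. The erythroid sums were 212 to 299 TPM in double, 185 to 260 TPM in inv(3), 845 to 1270 TPM in Sf3b1 K700E and 486 to 510 TPM in control. Of 8 tested B-lymphoid markers, 7 were lower and 1 was higher in double than in Sf3b1 K700E. In inv(3) over control 4 were lower and 1 was higher. The higher marker was Cd79b in both, which made up most of the list's sum, at 35.2 to 54.3 TPM. That sum was 53.0 to 55.7 TPM in double, 40.3 to 52.6 TPM in inv(3), 44.0 to 45.3 TPM in Sf3b1 K700E and 39.5 to 41.6 TPM in control. Of the neutrophil markers, 6 of 11 tested were higher and 1 was lower in inv(3) than in control. In double over Sf3b1 K700E 5 were higher and 1 was lower. The neutrophil sums were 15100 to 22100 TPM in double, 25100 to 29300 TPM in inv(3), 7050 to 13100 TPM in Sf3b1 K700E and 8790 to 12800 TPM in control. The part of all these marked cells in the differences below was not tested. Fat cells, a rich source of these enzymes, left little RNA here: 10 adipocyte markers summed to 1.22 to 2.62 TPM per library. Most of this was Cfd, at 1.13 to 2.46 TPM. Adipoq stood at 0.06 TPM or less, and Lep, Adrb3 and Pck1 were listed at 0 in all libraries. In bulk RNA, fewer cells of a type and less RNA per cell cannot be told apart.

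On the per-length TPM scale, Scd2, Elovl5 and Elovl1 were the most abundant of the 10 in every group, and Fasn followed them. In the double group, mean TPM ran in the order Scd2 (215), Elovl5 (163), Elovl1 (99.1), Fasn (51.4), Fads2 (29.96), Scd3 (25.7), Fads1 (24.3), Elovl6 (12.1), Fads3 (3.36) and Scd1 (0.173). In inv(3) the order was Elovl5 (184), Scd2 (165), Elovl1 (94.7), Fasn (42.9), Fads1 (17.3), Scd3 (15.02), Fads2 (12.2), Elovl6 (6.44), Fads3 (0.903) and Scd1 (0.10). Without inv(3), Scd3 was last: Sf3b1 K700E libraries averaged 0.0367 TPM and control libraries 0.0167 TPM of Scd3, below Scd1 at 0.457 TPM and 0.540 TPM in the same groups. Neighbours in these orders whose libraries overlapped were Fads2 and Scd3, and Scd3 and Fads1, in the double group, Fads1 and Scd3, and Scd3 and Fads2, in inv(3), Scd2 with Elovl5 and Fads1 with Fads2 in Sf3b1 K700E, and Elovl5 with Scd2 and Fads1 with Fads2 in control.

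**Figure D1:**
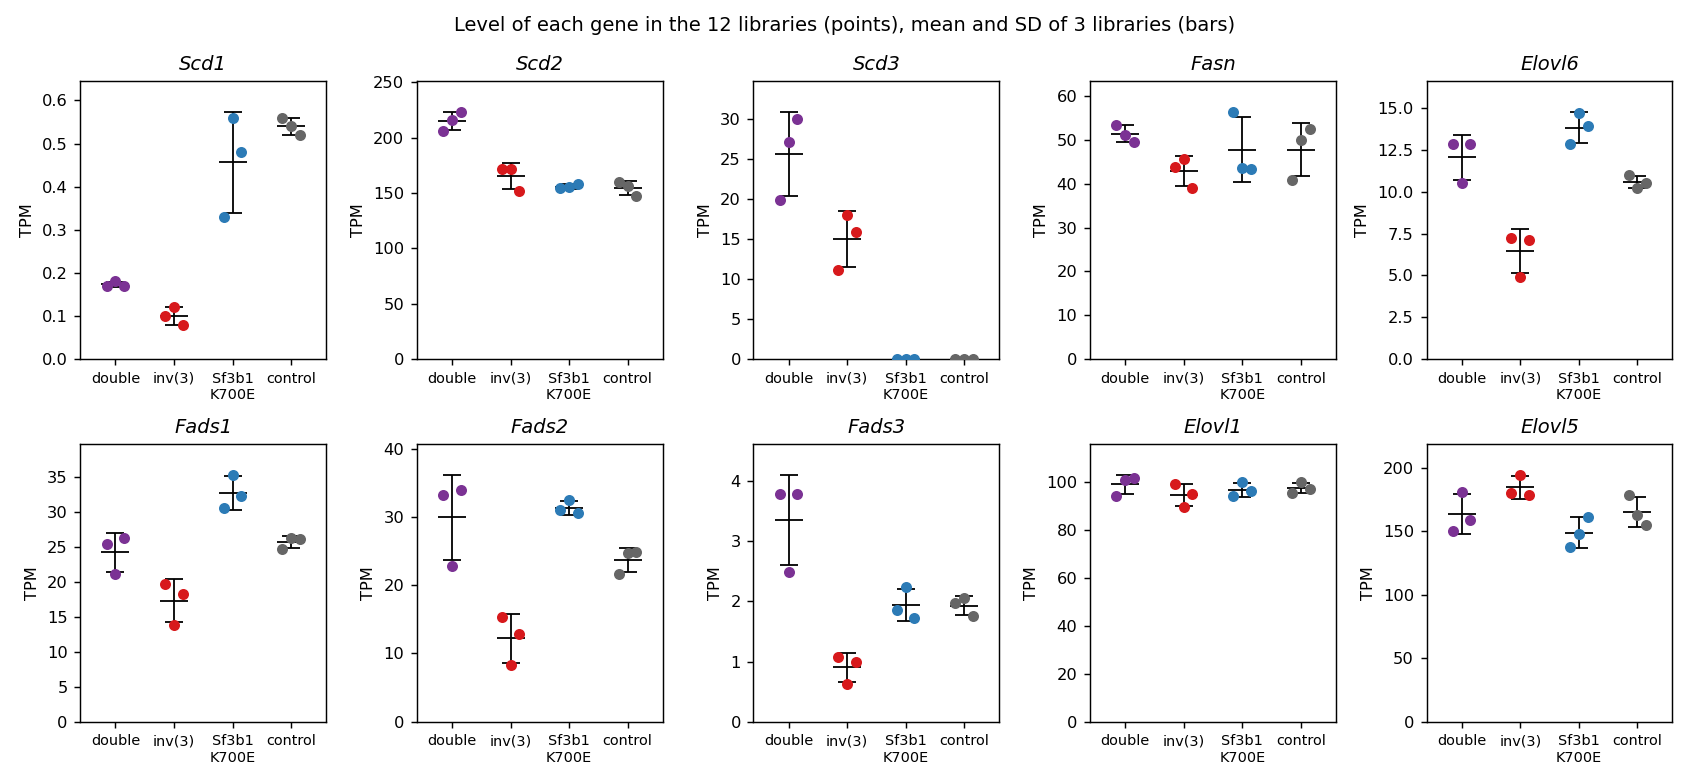
Level of each of the 10 genes in TPM (y axes, each from 0) in the double, inv(3), Sf3b1 K700E and control groups. Points are libraries, and bars are the mean and SD of 3 libraries. Scd3 was present in the 6 libraries with inv(3), at 11.2 to 30.03 TPM, and at 0.06 TPM or less in the other 6.

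Scd3 and Scd1 showed the widest differences between groups with and without inv(3), and they ran in opposite directions within 1 cluster. Scd3 was at 19.9, 27.2 and 30.03 TPM in the double and 11.2, 18.0 and 15.9 TPM in the inv(3) libraries, against 0.04, 0.01 and 0.06 TPM in Sf3b1 K700E and 0.00, 0.01 and 0.04 TPM in control. The groups with and without inv(3) did not overlap. Summed Scd3 counts per library total were 999 times higher in inv(3) than in control (exact 95% interval 485 to 2487, counting error only), and 651 times higher in double than in Sf3b1 K700E (412 to 1098). Of the 7 control counts 6 came from replicate 3, and without that library the log2 difference of inv(3) over control was 11.94. With all libraries the fitted log2 differences were 9.97 ± 0.45 for inv(3) over control and 9.41 ± 0.40 for double over Sf3b1 K700E (± SE). Between the 2 groups with the allele, Scd3 was 0.68 ± 0.22 log2 units higher in double than in inv(3), and their TPM did not overlap.

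Scd1 went the other way, at levels under 1 TPM. It was at 0.17, 0.18 and 0.17 TPM in double and 0.10, 0.12 and 0.08 TPM in inv(3) libraries, against 0.33, 0.56 and 0.48 TPM in Sf3b1 K700E and 0.56, 0.54 and 0.52 TPM in control. Every library with inv(3) lay below every library without it. The log2 difference was -2.35 ± 0.23 for inv(3) over control, -1.30 ± 0.22 for double over Sf3b1 K700E and 0.75 ± 0.24 for double over inv(3). These values rest on few reads, 66 counts over the inv(3) libraries against 344 in control and 113 over the double libraries against 295 in Sf3b1 K700E. The corresponding ratios per library total were 0.188 (exact 95% interval 0.142 to 0.245) and 0.382 (0.305 to 0.476).

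Scd2, the main stearoyl-CoA desaturase of these cells, differed by much less. It was at 206, 216 and 223 TPM in double, 172, 172 and 152 TPM in inv(3), 154, 156 and 158 TPM in Sf3b1 K700E and 160, 156 and 148 TPM in control libraries. The double libraries lay above all 9 others, and inv(3) and control overlapped. The log2 difference was 0.56 ± 0.06 for double over Sf3b1 K700E, 0.29 ± 0.06 for double over inv(3) and 0.21 ± 0.06 for inv(3) over control. The last of these was 0.16 without the inv(3) library of replicate 2.

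As a share of all Scd TPM, Scd2 held 88.0% or more in every library. Scd3 made up 10.6% ± 1.62 of it in double and 8.35% ± 1.96 in inv(3), against 0.0234% ± 0.0159 in Sf3b1 K700E and 0.0111% ± 0.0141 in control (SD, n = 3). The summed Scd level was 241 ± 13.4 TPM in double, 180 ± 11.4 TPM in inv(3), 157 ± 1.95 TPM in Sf3b1 K700E and 155 ± 6.45 TPM in control (SD, n = 3). Scd4, the remaining paralogue, followed Scd1 at a similarly low level: it averaged 0.123 TPM in double and 0.0967 TPM in inv(3), against 0.233 TPM in Sf3b1 K700E and 0.250 TPM in control. Scd4 fell in inv(3) relative to control (log2 difference -1.23 ± 0.31, adjusted p = 0.0088 by edgeR). For double over Sf3b1 K700E its difference was -0.83 ± 0.31 (adjusted p = 0.041, between 0.025 and 0.15 over the alternatives). The paralogues are similar in sequence, and 6.37% of 50-base windows of the Scd3 transcript occur in another Scd transcript, against 4.66% for Scd1, 3.79% for Scd2 and 3.44% for Scd4, so part of their reads could have been split by the authors' counting.

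**Figure D2:**
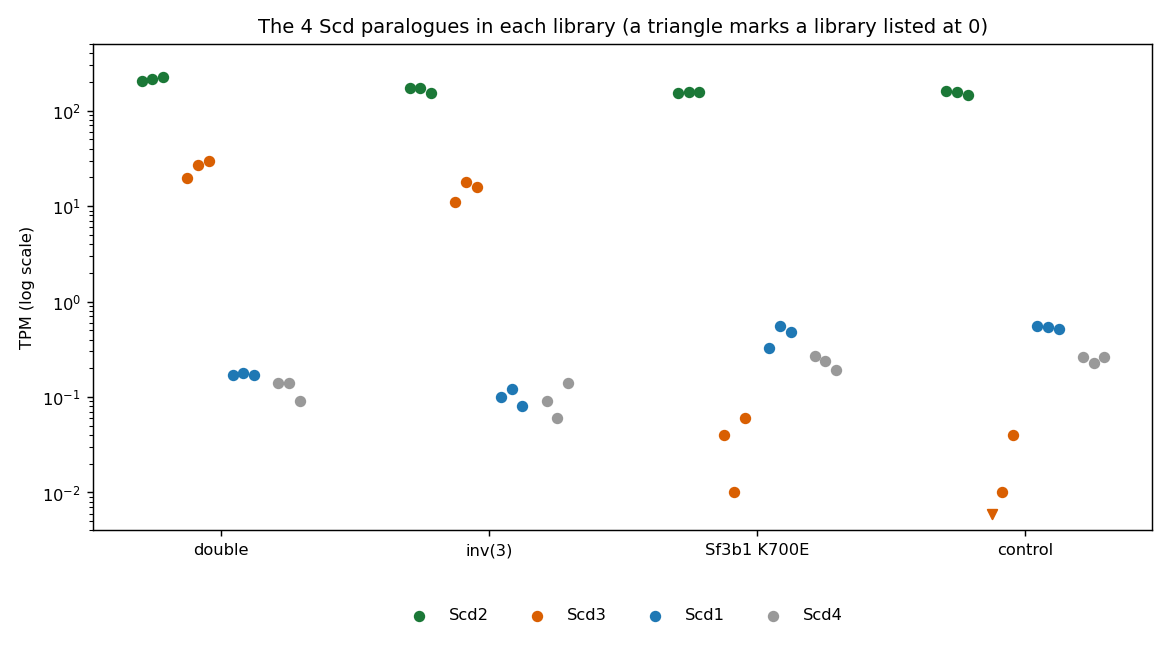
TPM of the 4 Scd paralogues (y axis, log scale) in each library of the double, inv(3), Sf3b1 K700E and control groups, 1 point per library. A triangle marks a library listed at 0. Scd3 changes place between the groups, from second of the 4 with inv(3) to last without it, while Scd2 is the highest of the 4 in all 12 libraries.

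The genes around the Scd cluster were compared by a rule added after the data were seen: all protein-coding RefSeq genes within 250 kb. Of 11 such neighbours 9 were tested. Pkd2l1, which encodes a polycystin-family cation channel, had 149, 110 and 198 counts in double and 70, 26 and 71 counts in inv(3), against 1, 0 and 2 counts in Sf3b1 K700E and 0, 1 and 0 counts in control. Like Scd3 it separated the libraries with inv(3) from those without. The ratio per library total was 163 for inv(3) over control (exact 95% interval 28.9 to 6492) and 152 for double over Sf3b1 K700E (51.6 to 739). Its adjusted p-values by edgeR were 3.8e-05 and 3.6e-06. Pkd2l1 was also higher in double than in inv(3), by 1.43 ± 0.37 log2 units (adjusted p = 0.017).

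In GENCODE M21, Pkd2l1 (chr19:44147637-44192442, minus strand) and Scd3 (plus strand) point away from each other with 10.8 kb between their starts, and they share 0 exonic bases. The RefSeq span of Pkd2l1 runs on to 44248328 and covers Scd3, and the libraries are unstranded, so reads from a long Pkd2l1 transcript inside Scd3 exons could not be told from Scd3 reads. An antisense transcript annotated inside Scd3 in GENCODE shares 0 bases with its exons. Farther out, Cpn1, a carboxypeptidase subunit, rose in inv(3) relative to control by 1.93 ± 0.35 log2 units (adjusted p = 0.0012), at 0.41 to 0.60 TPM in inv(3) against 0.10 to 0.16 TPM in control. Bloc1s2 rose by 0.36 ± 0.04 (adjusted p = 4.0e-05) and Sec31b fell by 0.69 on the log2 scale (SE 0.17, adjusted p = 0.0075). The other 5, Erlin1, Chuk, Cwf19l1, Ndufb8 and Hif1an, had log2 differences between -0.08 and 0.11 in inv(3) over control and did not pass the test there. Cwf19l1 fell by 0.18 in double over Sf3b1 K700E (SE 0.06, adjusted p = 0.023), and Ndufb8 fell by 0.15 in double over inv(3) (SE 0.05, adjusted p = 0.043).

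**Figure D3:**
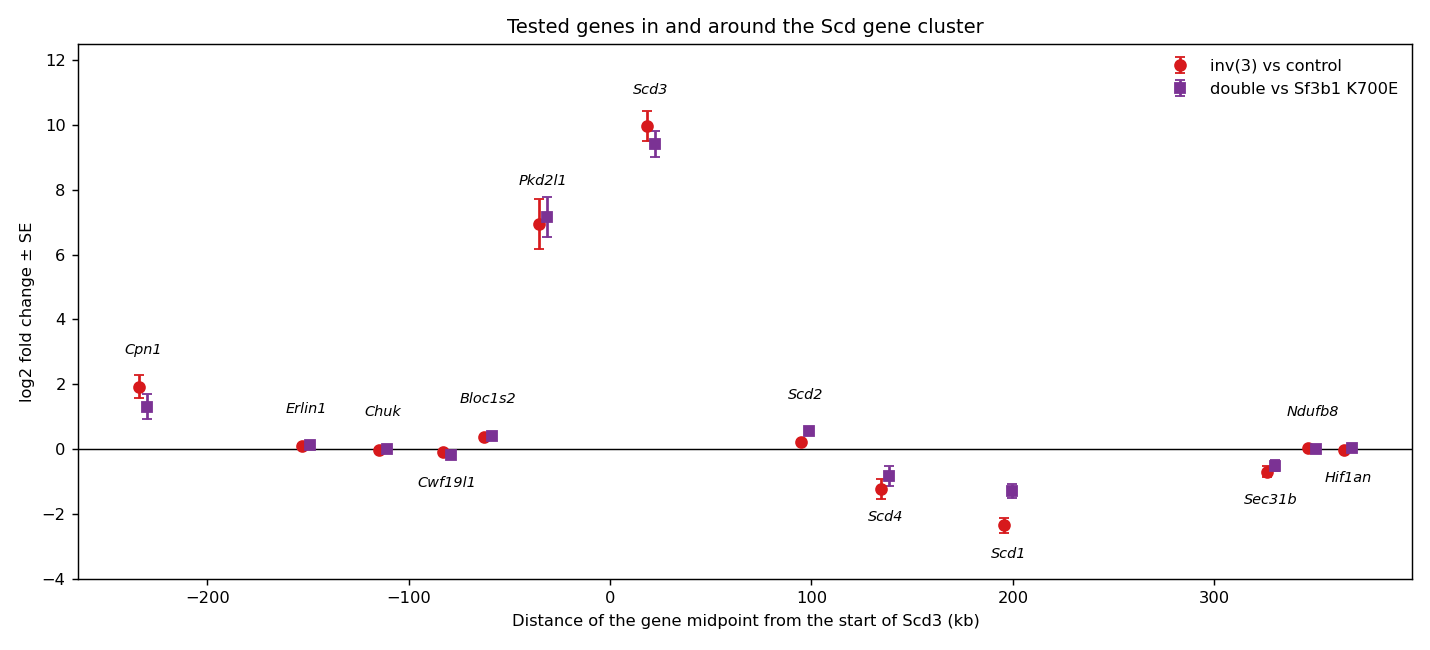
Fitted log2 difference with its SE (y axis) for the 4 Scd genes and their 9 tested neighbours, against the distance in kb of each gene's midpoint from the start of Scd3 (x axis), for inv(3) over control (circles) and double over Sf3b1 K700E (squares). Scd3 (9.97 and 9.41) and Pkd2l1, next to each other, stand highest, and the other points lie between -2.35 and 1.93.

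The 3 Fads genes were lowest in inv(3), and the double group did not share that level. Fads2, which starts polyunsaturated fatty acid synthesis, was at 33.2, 22.8 and 33.9 TPM in double, 15.4, 8.32 and 12.9 TPM in inv(3), 31.0, 32.5 and 30.5 TPM in Sf3b1 K700E and 21.7, 24.7 and 24.9 TPM in control libraries. Every inv(3) library lay below every other library. On the log2 scale the difference was -0.85 ± 0.19 for inv(3) over control, 1.22 ± 0.19 for double over inv(3) and 0.02 ± 0.18 for double over Sf3b1 K700E.

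Fads3 showed the widest contrast between the 2 groups with inv(3). It was at 3.79, 2.49 and 3.79 TPM in double and 1.08, 0.63 and 1.00 TPM in inv(3), against 1.86, 2.24 and 1.73 TPM in Sf3b1 K700E and 1.98, 2.06 and 1.75 TPM in control. The double libraries were the highest of the 12 and the inv(3) libraries the lowest. The log2 difference was -0.98 ± 0.21 for inv(3) over control, 0.88 ± 0.20 for double over Sf3b1 K700E and 1.81 ± 0.21 for double over inv(3).

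Fads1, which completes arachidonate synthesis, was at 25.4, 21.1 and 26.3 TPM in double, 19.7, 13.9 and 18.3 TPM in inv(3), 30.6, 35.4 and 32.3 TPM in Sf3b1 K700E and 24.7, 26.2 and 26.2 TPM in control. Its inv(3) libraries lay below all others, and its Sf3b1 K700E libraries above all others. The log2 difference was -0.46 ± 0.10 for inv(3) over control, -0.34 ± 0.10 for double over Sf3b1 K700E and 0.40 ± 0.10 for double over inv(3). Within the family, Fads1 made up 57.4% ± 3.21 of the summed Fads TPM in inv(3), against 42.4% ± 2.67 in double, 49.6% ± 1.18 in Sf3b1 K700E and 50.1% ± 0.856 in control (SD, n = 3). Their summed level was 57.6 ± 9.75 TPM in double, 30.4 ± 6.86 TPM in inv(3), 66.1 ± 3.59 TPM in Sf3b1 K700E and 51.4 ± 2.63 TPM in control.

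The inv(3) library of replicate 2 was the lowest of its group for all 3 Fads genes and for Elovl6. Without it, the log2 difference of inv(3) over control was -0.34 for Fads1, -0.65 for Fads2, -0.80 for Fads3 and -0.46 for Elovl6. Around the Fads cluster, 6 of 10 protein-coding neighbours within 250 kb were tested. In inv(3) over control Rab3il1, next to Fads3, fell by 1.41 log2 units (SE 0.29, adjusted p = 0.0026), with 2.03, 1.57 and 1.93 TPM in double and 1.52, 0.54 and 1.35 TPM in inv(3), against 5.76, 6.66 and 4.62 TPM in Sf3b1 K700E and 2.78, 3.14 and 3.86 TPM in control. Fth1, ferritin heavy chain, fell by 0.36 (SE 0.05, adjusted p = 0.00025) and Incenp rose by 0.15 ± 0.05 (adjusted p = 0.022). In the same comparison Fen1, Tmem258 and Dagla had -0.04, 0.03 and -0.53 and did not pass. In double over Sf3b1 K700E Rab3il1 fell by 1.53 (SE 0.28, adjusted p = 0.00094), Fth1 fell by 0.36 (SE 0.05, adjusted p = 0.00018) and Fen1 fell by 0.21 (SE 0.06, adjusted p = 0.012).

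Elovl6, the palmitate elongase, had the same order of groups as Fads2. It was at 12.8, 10.5 and 12.8 TPM in double, 7.25, 4.92 and 7.14 TPM in inv(3), 12.9, 14.7 and 13.9 TPM in Sf3b1 K700E and 10.97, 10.25 and 10.54 TPM in control. The inv(3) libraries lay below all others. On the log2 scale the difference was -0.61 ± 0.12 for inv(3) over control, 0.82 ± 0.12 for double over inv(3) and -0.11 ± 0.11 for double over Sf3b1 K700E.

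Fasn, Elovl1 and Elovl5 varied little. Fasn was at 53.4, 51.2 and 49.6 TPM in double, 43.8, 45.7 and 39.0 TPM in inv(3), 56.4, 43.7 and 43.4 TPM in Sf3b1 K700E and 40.9, 50.1 and 52.4 TPM in control, and its groups overlapped except for double and inv(3). Its log2 difference was -0.04 ± 0.12 for inv(3) over control and 0.19 ± 0.12 for double over Sf3b1 K700E. Elovl1 averaged 99.1 TPM in double, 94.7 TPM in inv(3), 96.9 TPM in Sf3b1 K700E and 97.6 TPM in control, with overlap between all groups. Its fitted log2 difference was 0.07 ± 0.04 for inv(3) over control, where mean TPM was lower, and 0.13 ± 0.04 for double over Sf3b1 K700E. The fit scales libraries otherwise than TPM does, so differences this small can change size or sign between the 2 scales. Elovl5 was at 150, 181 and 158 TPM in double, 180, 194 and 178 TPM in inv(3), 137, 148 and 161 TPM in Sf3b1 K700E and 178, 163 and 155 TPM in control. Its inv(3) libraries lay just above those of control and overlapped those of double. The log2 difference was 0.27 ± 0.09 for inv(3) over control, and 0.21 without the inv(3) library of replicate 2.

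**Figure D4:**
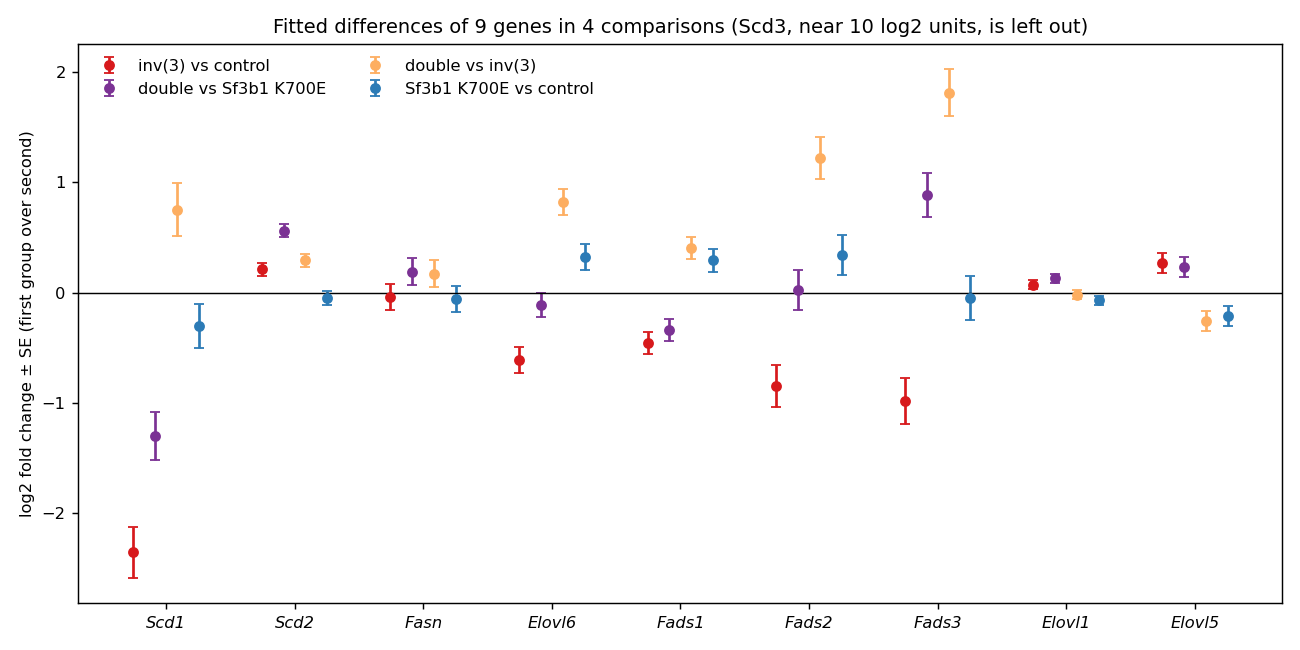
Fitted log2 difference with its SE (y axis) of 9 of the genes (x axis) in 4 comparisons, each the first group over the second. Scd3 is left out for scale. Scd1, Fads1, Fads2, Fads3 and Elovl6 lie below 0 for inv(3) over control and above 0 for double over inv(3). For double over Sf3b1 K700E, Scd1 (-1.30), Fads1 (-0.34) and Elovl6 (-0.11) lie below 0.

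In the fit over all genes, 8 of the 10 were past an adjusted p of 0.05 in inv(3) over control, 3 higher (Scd2, Scd3, Elovl5) and 5 lower (Scd1, Fads1, Fads2, Fads3, Elovl6). Over all genes 38.7% were past that limit, 18.4% higher and 20.3% lower. In double over Sf3b1 K700E, 7 were past it, 5 higher (Scd2, Scd3, Fads3, Elovl1, Elovl5) and 2 lower (Scd1, Fads1), where the share of all genes was 49.2%, with 25.7% higher and 23.5% lower. In double over control 4 were past it, with Scd2, Scd3 and Fads3 higher and Scd1 lower, where the share of all genes was 41.1%, with 20.8% higher and 20.4% lower. In double over inv(3) 8 were past it, where the share was 22.6%, with 13.4% higher and 9.13% lower. Of the 8, all were higher except Elovl5, which was lower, and Fasn and Elovl1 were not past it. The genes were chosen with these contrasts in view, and nothing is read from the counts.

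Several of these places past the limit hang on single libraries. In double over inv(3) the count was 5 without replicate 2 of control, replicate 1 or 3 of inv(3) or replicate 1 of double, and 4 without replicate 3 of double. In double over Sf3b1 K700E it was 4 without replicate 2 of Sf3b1 K700E or of double. Scd2 in inv(3) over control was no longer past the limit without replicate 2 of inv(3), nor Elovl5 without replicate 2 of inv(3) or replicate 2 or 3 of control.

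In Sf3b1 K700E over control none of the 10 genes was past the limit in edgeR, and nothing is read from that count. The share of all genes past it was 8.84%, with 3.94% higher and 4.90% lower. At an unadjusted p under 0.05 there were 3 (Fads1, Elovl5 and Elovl6), and DESeq2 called 2 and limma-voom 0. The fitted differences of Fads1, Fads2 and Elovl6 were 0.29 ± 0.10, 0.34 ± 0.18 and 0.32 ± 0.12 log2 units. Their TPM in the Sf3b1 K700E libraries lay above those of control. The share of all genes separated in this way was not computed, and nothing is read from it. Without replicate 2 of inv(3), which enters the fit through the shared dispersion, 2 genes were past the limit.

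The interaction of the alleles asks whether the difference made by inv(3) is the same with and without Sf3b1 K700E. Among the 10 genes Fads3 was past the limit, at 1.86 ± 0.29 log2 units, where 0.836% of all genes were, 0.400% higher and 0.436% lower. It was not past the limit without replicate 2 of control or replicate 1 or 3 of double, and leaving out replicate 2 of inv(3) brought the count to 2, with Scd2. The corresponding values were 1.05 ± 0.31 for Scd1, 0.88 ± 0.26 for Fads2, 0.50 ± 0.16 for Elovl6, 0.35 ± 0.08 for Scd2, 0.12 ± 0.15 for Fads1 and -0.55 ± 1.09 for Scd3.

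A readout that the choice of genes did not use is the effective transcript length, which shifts when a gene's isoforms change in proportion. The test took genes with at least 50 counts in every library and a length that varied between libraries. Only Elovl1 among the 10 met both conditions, with 1634 to 1648 bases over the libraries. In none of 5 comparisons was it past the limit in limma, and at an unadjusted p under 0.05 it was past in 0. The share of 3121 tested genes past the limit was 0.288% in inv(3) over control, 0.513% in double over control, 0.673% in double over Sf3b1 K700E and 0.0320% in each of Sf3b1 K700E over control and double over inv(3). Scd1 and Scd3 had too few counts in some libraries to enter the test, whatever their isoforms. The length of the remaining genes did not vary enough to enter it, so it gives no information on their isoforms.

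For each of the 10, the genes whose log2 CPM profile over the 12 libraries was nearest after centring were listed, among 10480 genes. For Scd3 they were Npy (root mean square difference 1.08 log2 units, against a spread of 4.92 in Scd3 itself) and Pcdh11x (1.53). Npy, the neuropeptide Y gene, was at 75.9, 50.1 and 74.6 TPM in double and 31.3, 29.4 and 41.1 TPM in inv(3). It was at 0.00, 0.06 and 0.00 TPM in Sf3b1 K700E and 0.00, 0.11 and 0.06 TPM in control. The nearest genes were picked by their levels in these same libraries, so a shared order of groups follows from the choice. Fads2 was closest to Rgag4 (0.09) and Rbpms (0.14), and Elovl6 to Muc13 and Mfsd6 (0.10 each). Rbpms, an RNA-binding protein, was at 17.3, 11.1 and 15.3 TPM in double and 8.01, 3.52 and 7.27 TPM in inv(3). It was at 17.8, 19.4 and 14.7 TPM in Sf3b1 K700E and 10.9, 12.6 and 13.1 TPM in control. Fads1 was closest to Pgm2l1 and Slc44a1 (0.06 each), Fads3 to Bmp1 (0.25) and Gpr171 (0.26), and Scd1 to Arhgef25 and Adamts6 (0.29 each). Scd2 was closest to Irf1 and Akap13 (0.07 each), Elovl5 to Ppp2cb and Tm7sf3 (0.04 each), Elovl1 to Smarcd2 and Ercc3 (0.03 each) and Fasn to Gcn1l1 and Tmem201 (0.06 each).

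Around these enzymes, 107 of 114 other genes of fatty acid metabolism were tested, in 10 lists. In inv(3) over control 31 rose and 24 fell, 51.4% of those tested against 38.7% of all genes, and their median log2 difference was 0.03, against 0.00 over all genes. In double over Sf3b1 K700E 34 rose and 26 fell, 56.1% against 49.2% of all genes, with a median of 0.03, against 0.03 over all genes. In double over control 22 rose and 26 fell, 44.9% against 41.1% of all genes, and in double over inv(3) 14 rose and 21 fell, 32.7% against 22.6%. In Sf3b1 K700E over control 10 rose and 9 fell, 17.8% against 8.84%. That last total of 19 was 2 without replicate 2 of Sf3b1 K700E, and 8, 3 and 11 without replicate 1, 2 and 3 of control. The total of 35 in double over inv(3) was 22 without replicate 2 of inv(3) and 17 without replicate 1 or 3 of double. In the interaction 1 was higher and 1 was lower, 1.87% against 0.836% of all genes. The lower gene was Lpl, described with the uptake genes.

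**Figure D5:**
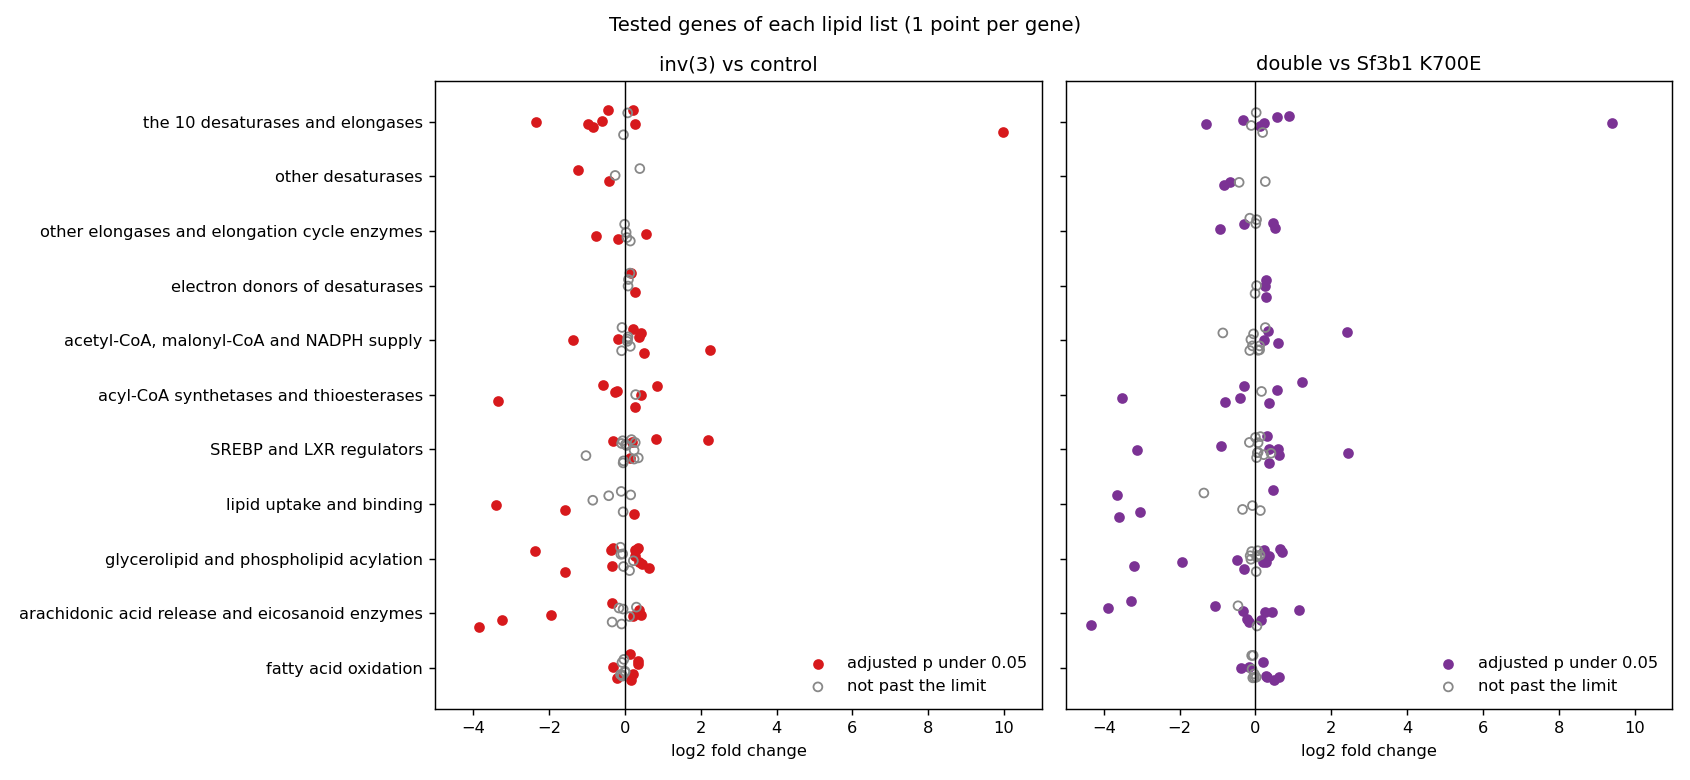
Log2 difference (x axis) of each tested gene in the 10 enzymes described and in 10 further lists (rows), for inv(3) over control (left) and double over Sf3b1 K700E (right). Filled points are past an adjusted p of 0.05 and open points are not. Most lists have points on both sides of 0. Scd3 lies farthest to the right in both panels, at 9.97 and 9.41.

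The supply of malonyl-CoA showed 1 wide change. Acacb, the mitochondrial acetyl-CoA carboxylase whose malonyl-CoA restrains fatty acid oxidation, was at 3.44, 4.60 and 3.85 TPM in double and 2.84, 3.71 and 3.15 TPM in inv(3), against 0.80, 0.68 and 0.88 TPM in Sf3b1 K700E and 0.65, 0.72 and 0.85 TPM in control. It rose by 2.25 ± 0.16 log2 units in inv(3) over control (adjusted p = 2.2e-06) and by 2.42 ± 0.16 in double over Sf3b1 K700E (adjusted p = 6.5e-07). The cytosolic Acaca, which feeds Fasn, differed by 0.14 ± 0.05 (adjusted p = 0.066) and rose by 0.22 ± 0.05 (adjusted p = 0.0046) in the same comparisons. Idh1, a source of cytosolic NADPH, rose in both, by 0.37 ± 0.06 and 0.59 ± 0.06. Of the 13 tested genes of this list, 5 rose and 2 fell in inv(3) over control, and 4 rose and 0 fell in double over Sf3b1 K700E.

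Among the 17 tested SREBP and LXR regulators, 4 rose and 1 fell in inv(3) over control, and 6 rose and 2 fell in double over Sf3b1 K700E. Mlxipl, the carbohydrate-responsive factor ChREBP that drives lipogenic genes in liver, was at 1.20, 1.12 and 1.13 TPM in double and 1.29, 0.81 and 0.87 TPM in inv(3), against 0.17, 0.28 and 0.23 TPM in Sf3b1 K700E and 0.20, 0.27 and 0.23 TPM in control. It rose by 2.19 ± 0.22 (adjusted p = 2.1e-05) and 2.43 ± 0.22 (adjusted p = 5.6e-06). Rxra, the partner of LXR, rose by 0.81 ± 0.15 and 0.59 ± 0.15. Srebf1, Srebf2, Scap and Insig1, the core of the sterol-sensing system, did not pass in inv(3) over control, with log2 differences between -0.06 and 0.27.

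Among 8 tested genes of lipid uptake, 1 rose and 2 fell in inv(3) over control, and 1 rose and 3 fell in double over Sf3b1 K700E. Lpl, lipoprotein lipase, was at 1.10, 1.23 and 0.98 TPM in double and 1.51, 1.07 and 1.33 TPM in inv(3), against 9.48, 13.1 and 6.96 TPM in Sf3b1 K700E and 3.93, 4.04 and 4.57 TPM in control. It fell by 1.57 on the log2 scale in inv(3) over control (SE 0.20, adjusted p = 0.00010) and fell by 3.05 in double over Sf3b1 K700E (SE 0.21, adjusted p = 7.3e-07), and it rose by 1.17 ± 0.19 in Sf3b1 K700E over control (adjusted p = 0.0071). Vldlr, a lipoprotein receptor, fell by 3.40 (SE 0.51) and by 3.64 (SE 0.50). Fabp4, a fatty acid carrier, fell by 3.61 (SE 0.60, adjusted p = 0.00047) in double over Sf3b1 K700E and had -0.85 ± 0.65 in inv(3) over control, which did not pass. The macrophage markers given above, 13 of 13 of which were lower in double than in Sf3b1 K700E, move with these genes, and their part was not tested.

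Of the enzymes that activate fatty acids and place them in phospholipids, Acsl6 and Lpcat2 changed most. Acsl6, a ligase for polyunsaturated acids, was at 0.05, 0.10 and 0.13 TPM in double and 0.04, 0.19 and 0.13 TPM in inv(3), against 1.04, 1.09 and 1.14 TPM in Sf3b1 K700E and 1.36, 1.29 and 1.35 TPM in control. It fell by 3.36 (SE 0.36, adjusted p = 3.2e-05) and by 3.51 (SE 0.38, adjusted p = 1.9e-05), and Acsl4, the arachidonate ligase, fell by 0.57 (SE 0.06) and by 0.79 (SE 0.07). Among the 8 tested acyl-CoA synthetases and thioesterases, 3 rose and 4 fell in each of the 2 comparisons. Lpcat2, which acylates lysophospholipids and makes platelet-activating factor, was at 0.93, 1.34 and 1.21 TPM in double and 3.86, 1.47 and 2.19 TPM in inv(3), against 10.6, 12.2 and 11.6 TPM in Sf3b1 K700E and 14.8, 13.8 and 13.2 TPM in control, a fall of 2.37 (SE 0.26, adjusted p = 4.1e-05) and of 3.21 (SE 0.27, adjusted p = 4.5e-06). It was also lower in double than in inv(3), by 1.18 log2 units (SE 0.27, adjusted p = 0.011). Of 18 acylation genes, 7 rose and 5 fell in inv(3) over control and 6 rose and 4 fell in double over Sf3b1 K700E.

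Of 13 eicosanoid genes, 3 rose and 4 fell in inv(3) over control, and 4 rose and 7 fell in double over Sf3b1 K700E. Hpgds, the hematopoietic prostaglandin D synthase, was at 0.09, 0.17 and 0.14 TPM in double and 0.23, 0.09 and 0.14 TPM in inv(3), against 1.91, 2.88 and 1.43 TPM in Sf3b1 K700E and 0.57, 0.58 and 0.77 TPM in control, a fall of 1.95 (SE 0.35, adjusted p = 0.00099) and of 3.88 (SE 0.35, adjusted p = 5.4e-06). Alox5, 5-lipoxygenase, fell by 1.06 (SE 0.16, adjusted p = 0.00026) in double over Sf3b1 K700E, and had -0.34 ± 0.16 in inv(3) over control (adjusted p = 0.11, and 0.0022 without replicate 2 of inv(3)). Its activating protein gene Alox5ap, at 397 to 471 TPM in group means, rose by 0.22 ± 0.05 in inv(3) over control (adjusted p = 0.0032) and by 0.15 ± 0.05 in double over Sf3b1 K700E (adjusted p = 0.024, and 0.051 to 0.13 without replicate 2 or 3 of either group). Hpgds rose by 1.63 ± 0.30 in Sf3b1 K700E over control (adjusted p = 0.010), where 11 of 13 macrophage and 2 of 12 mast cell, basophil and eosinophil markers rose. In double over Sf3b1 K700E 13 of 13 and 10 of 12 of these markers were lower. In inv(3) over control 8 of 13 and 12 of 12 were lower, and 1 macrophage marker, Adgre1, was higher. The part of either cell type in these differences was not tested.

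The remaining lists held smaller differences. Elovl7, the other elongase named by the rule, fell by 0.77 (SE 0.10, adjusted p = 0.00015) in inv(3) over control and by 0.94 (SE 0.10, adjusted p = 2.1e-05) in double over Sf3b1 K700E, averaging 1.28 TPM in double and 1.15 TPM in inv(3), against 2.62 TPM in Sf3b1 K700E and 2.12 TPM in control. Of the 7 tested elongation-cycle genes 1 rose and 2 fell, and 2 rose and 2 fell, with the dehydratase gene Hacd2 rising by 0.56 ± 0.10 and 0.45 ± 0.10. Cyb5a, the cytochrome that passes electrons to the desaturases, rose by 0.26 ± 0.06 (adjusted p = 0.0047) and 0.29 ± 0.06 (adjusted p = 0.0019). Of the 5 tested electron donors 2 rose in inv(3) over control and 3 in double over Sf3b1 K700E, and 0 fell in either. Degs1, the ceramide desaturase, fell by 0.42 (SE 0.10) and by 0.68 (SE 0.10). Of 14 oxidation genes, 5 rose and 2 fell in each comparison, with Acadl falling by 0.31 and by 0.38 (SE 0.05 each) and Hsd17b4 rising by 0.21 ± 0.04 and 0.30 ± 0.04.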

How the data were processed

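Poly(A)-selected RNA had been made into unstranded TruSeq libraries, per the labels. Each library's deposited gene table has, per the file headers, RSEM's columns. Its expected counts are fragment numbers estimated by the authors for each gene, without normalization. Its TPM values were scaled by the authors to 1 common total. The submitters' processing notes name mm10 and bcl2fastq. The aligner and all software versions are not given in the sources available. Reads that paralogues share, or that stem from the opposite strand, cannot be assigned with certainty.

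Counts were rounded, passed through filterByExpr, scaled by TMM and fitted in edgeR 4.0.16 (R 4.3.3) with robust quasi-likelihood over all 12 libraries. Two-sided p-values were adjusted after Benjamini and Hochberg across 13755 genes, with 0.05 as the limit. The deposited effective length, a score in bases made by the authors' tool, was log2-transformed and fitted with limma 3.58.1 in 3121 genes of at least 50 counts in every library. Levels are the deposited TPM. Intervals on summed counts cover counting error only. Members and lists were chosen with earlier results of these data known. The genes named from a list were the 3 with the smallest p in inv(3) against control and the 3 in double against Sf3b1 K700E. Srebf1, Srebf2, Scap, Insig1 and the neighbours of the clusters were named after their values were seen. The values of 1 gene among those the rule selects are not reported here. Nearest profiles were sought among genes averaging at least 2 CPM. The code was tested on simulated data. Further fits changed 1 choice at a time: RLE in place of TMM, no low-count filter, a floor of 5 CPM on the mean, DESeq2 1.42.0, limma-voom, a fit of just the groups compared, a block for replicate number, an offset for effective length, and every library omitted in turn.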

Additional observations from a re-analysis of the deposited data

Results flagged for a closer look

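A test of the difference between the effect of inv(3) with and without Sf3b1 K700E passed for Lpl, a related gene. Lpl had an interaction of -1.49 ± 0.28 log2 units (adjusted p = 0.035 by edgeR), from -3.05 for double over Sf3b1 K700E and -1.57 for inv(3) over control. The inv(3) group is the only one without Y-linked RNA, so genotype and sex cannot be told apart in it. Of 13 macrophage markers, 2 were past the limit in the same interaction, both lower. All but Cd163 (0.62 ± 0.47) had negative values there, from -0.59 ± 0.30 for Vcam1 to -2.75 ± 0.61 for C1qa. The part of these markers in the interaction of Lpl was not tested. Over the alternatives the adjusted p of Lpl reached 0.14. The call of Lpl was lost without replicate 1, 2 or 3 of control, replicate 3 of inv(3), replicate 1 of Sf3b1 K700E, or replicate 1 or 3 of double.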

How the results depend on the processing

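Among the 10 enzymes and the named related genes, no log2 difference past the limit changed sign under the alternatives run. Of 1252 recomputed values of the 10 enzymes, 1168 kept their side of the limit, 69 lost it and 15 gained it, and of 4353 of the named related genes 4167 kept it, 147 lost it and 39 gained it. Counts that moved by over 1.5 times were as follows. For the 10 enzymes, a mean of at least 5 CPM, which removes Scd1 and Fads3, gave 2 past the limit in double over control, 3 in double over Sf3b1 K700E and 0 in the interaction. Fitting without the low-count filter gave 5 in double over inv(3), and fitting the compared groups alone gave 4 there and 3 in Sf3b1 K700E over control. DESeq2 gave 2 in Sf3b1 K700E over control and 3 in the interaction. Leaving out 1 library gave 0 to 2 in Sf3b1 K700E over control, 4 to 7 in double over Sf3b1 K700E, 4 to 7 in double over inv(3) and 0 to 2 in the interaction. For the related genes, the interaction gave 1 with RLE scaling or 5 CPM, 6 with DESeq2 and 0 with limma-voom, and double over inv(3) gave 21 with the compared groups alone. Leaving out 1 library gave 2 to 22 in Sf3b1 K700E over control, 17 to 36 in double over inv(3) and 0 to 3 in the interaction. The cause of these shifts was not tested. With the replicate number as a block, the related genes gave 8 in Sf3b1 K700E over control and 0 in the interaction, and no count of the 10 enzymes moved. The numbers do not pair the libraries: of 18 pairs with a shared number, 2 had a correlation of their deviations over 0.1, with a range of -0.36 to 0.25. Depth limits Scd1, at 66 to 344 counts per group, and Scd3 outside inv(3), at 18 counts over the Sf3b1 K700E and 7 over the control libraries.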
